A study of Sus scrofa with 12 samples.

Results

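A set of 170 pig genes, 2.27% of the 7480 genes with values, stood higher in blood cells treated with Salmonella than in untreated ones and higher again where a miR-124 sponge was given with Salmonella. The members were chosen from these same values. Each had a mean of the Salmonella libraries at least 0.7 log2 units above the control mean, a mean of the sponge plus Salmonella libraries at least 0.7 above the Salmonella mean, and a sponge plus Salmonella mean of at least 6. The 3 criteria were met by 172 genes, and ITGB3 and ROCK1 were then set apart with the symbols IQGAP1 and TUBB1, which did not meet them. Every library and each of the 3 contrasts was used in that choice, so the members' levels and differences are given as a description, with standard errors and no test.

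The study measured messenger RNA by sequencing in 12 libraries that are labelled as peripheral blood mononuclear cells (PBMC), the lymphocytes and monocytes of blood. The sponge plus Salmonella group (4 libraries) was labelled as treated with a miR-124 sponge and Salmonella, although its titles name miR-124 and no sponge. The Salmonella group (4 libraries) was treated with Salmonella, named Salmonella Typhi in the series' design, and the control group (4 libraries) was not treated. All groups came from crossbred Duroc × Landrace × Yorkshire piglets that were 4 weeks old, 20 in the whole design. Cells of both treated groups were collected 12 h after treatment, and no such time is given for the controls. No label ties a library to an animal, so the spread between libraries may be partly technical, and how the sponge was delivered is not given in the sources used here.

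A microRNA pairs with matching sites in messenger RNAs and lowers their translation or stability. A sponge carries such sites in excess and holds the microRNA away from its targets. miR-124 is best known from neurons, and in macrophages it has been described as a brake on inflammatory signalling, while Salmonella endotoxin acts on monocytes through the receptor TLR4 and sets off interferon and cytokine genes. No member was among the interferon-stimulated or cytokine genes listed here: they include RNA-binding proteins, chromatin regulators, actin and membrane traffic proteins, mitochondrial enzymes and the ubiquitin system.

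The mean of the 170 members was 7.93, 8.20, 8.05 and 7.83 log2 units in sponge plus Salmonella replicates 1 to 4. It was 7.75, 6.40, 6.62 and 5.92 in Salmonella replicates 1 to 4, and 4.65, 5.46, 6.10 and 4.90 in control replicates 1 to 4. The sponge plus Salmonella libraries lay close together, whereas Salmonella replicate 1 stood almost at their level and well above the other 3 Salmonella libraries. Control replicate 3 was likewise the highest control library, above Salmonella replicate 4. The median over all genes lay between 5.11 and 5.31 in each of the 12 libraries. Normalization can set such medians level, and how it was done is not stated. These medians are therefore no test of a shift of a whole library. In bulk samples, fewer cells of a type and less RNA per cell cannot be told apart.

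**Figure D1:**
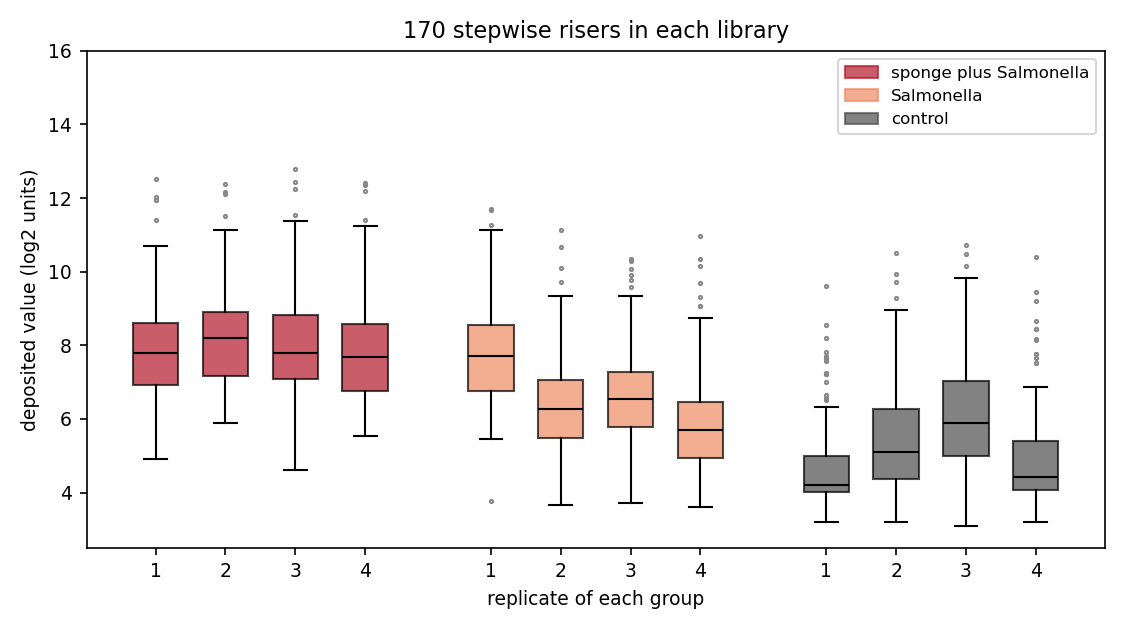
Values of the 170 stepwise risers in each library, in log2 units, by group and replicate (box: quartiles with the median; whiskers: the farthest values within 1.5 times the box height; points: values beyond). The box of Salmonella replicate 1 (mean 7.75) sits level with the 4 sponge plus Salmonella libraries (means 7.83 to 8.20), and that of control replicate 3 (mean 6.10) lies above that of Salmonella replicate 4 (mean 5.92).

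Over the members, the median difference between sponge plus Salmonella and Salmonella means was 1.27 log2 units (0.70 to 2.64), against -0.04 over all genes. The median difference between Salmonella and control means was 1.26 (0.71 to 3.81), against -0.02 over all genes. The rule set the lower ends of both ranges. The Salmonella libraries enter both differences with opposite sign, so a high or low Salmonella library moves the 2 in opposite directions. Between sponge plus Salmonella and control, which share no library with each other, the median difference was 2.62 (1.5 to 4.81), against -0.07 over all genes. In each of the 170 members the lowest sponge plus Salmonella library was above the highest control library, as in 17.3% of all genes. The rule also set these 2 means at least 2 steps of 0.7 apart. Neither the lower end of this range nor the lack of overlap is therefore a test.

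The middle group was the one that overlapped its neighbours. All 4 sponge plus Salmonella libraries were above all 4 Salmonella libraries in 67 of the 170 members, and over all genes in 10.6%. All 4 Salmonella libraries were above all 4 controls in 53 members, and over all genes in 15.7%. Salmonella replicate 1 reached at least the lowest sponge plus Salmonella library in 101 members and exceeded the highest one in 13. With Salmonella replicates 2 to 4 alone, the Salmonella values were below every sponge plus Salmonella value in 165 members, against 15.4% of all genes, and the 5 exceptions were VAV3, ABCC4, AKAP7, UBE2H and FCHO2. Control replicate 3 reached at least the lowest Salmonella library in 115 members, and controls 1, 2 and 4 were below every Salmonella library in 122, against 18.9% of all genes. The counts of 101, 13 and 115 members have no share over all genes beside them and are a description only.

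**Figure D2:**
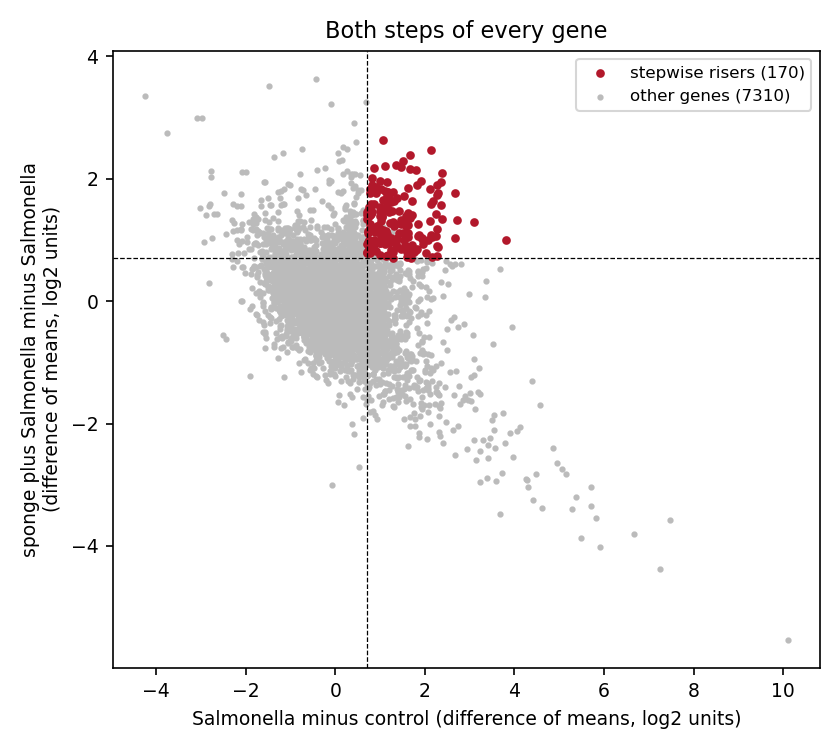
Difference between sponge plus Salmonella and Salmonella means (vertical axis) against the difference between Salmonella and control means (horizontal axis), both in log2 units, for the 170 stepwise risers (red) and 7310 other genes (grey); dashed lines mark 0.7. The axes share the Salmonella libraries, and the red points fill the upper right corner because the rule placed them there, with PIK3AP1 farthest right (3.81) and RPL23 highest (2.64).

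In the fit across all genes by limma, a linear model with moderated variances, 112 of the 170 members were past a Benjamini-Hochberg adjusted p of 0.05 and higher in sponge plus Salmonella than in Salmonella, where 11.9% of all genes were. In Salmonella against control 114 members were, where 15.7% of all genes were, and in sponge plus Salmonella against control 170 members were, where 17.9% of all genes were. These contrasts chose the members, and nothing is read from the counts. With Salmonella replicate 1 left out, the counts became 160 members (12.4% of all genes) in sponge plus Salmonella against Salmonella and 84 members (15.4% of all genes) in Salmonella against control. With control replicate 3 left out, 152 members (14.2% of all genes) were past the threshold in Salmonella against control. Over all genes 1336 were called higher and 1721 lower in sponge plus Salmonella against control, and with the libraries centred on their medians the split was 1062 to 2569. In Salmonella against control the split was 1175 to 1338, and 965 to 1778 after centring.

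Without Salmonella replicate 1, the median difference between sponge plus Salmonella and Salmonella was 1.63 log2 units over the members, and that between Salmonella and control was 0.89. The difference between Salmonella and control then fell below 0.7 in 56 of the 170 members and was above 0 in all of them. The order of the 3 group means was therefore the same without that library, while the relative size of its 2 steps was not. The other libraries had also entered the choice of the members, so the kept order is no test. With the rule applied without Salmonella replicate 1, 114 of the 170 remained.

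Each library was also left out in turn, the rule was applied to the other 11, and the library left out was set against the group means of the genes so chosen. Left out, Salmonella replicate 1 stood a median of 2.64 log2 units above the control mean over the 148 genes chosen without it. It was at least 0.7 above in 147 of them, against 14.7% of all genes. Its distance below the sponge plus Salmonella mean had a median of 0.10, and it was at least 0.7 below in 10.8% of those genes, against 8.21% of all genes. Salmonella replicate 4 showed the other pattern. It stood a median of 0.42 above the control mean over 155 genes, at least 0.7 above in 29.7% of them against 12.9% of all genes, and a median of 2.18 below the sponge plus Salmonella mean.

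Salmonella replicates 2 and 3, when left out, lay between the control and sponge plus Salmonella means at the median. Replicate 2 had medians of 1.06 above control and 1.51 below sponge plus Salmonella over 159 genes, and replicate 3 had 1.34 and 1.34 over 169 genes. Each sponge plus Salmonella library that was left out stood a median of 0.98 to 1.48 above the Salmonella mean, at least 0.7 above it in 68.6% to 95.6% of the genes chosen without it, against 10.1% to 11.7% of all genes. Of the controls left out, replicates 1, 2 and 4 lay a median of 2.07, 1.06 and 1.75 below the Salmonella mean, and replicate 3 lay 0.41 below it. The means of the other 2 groups still used libraries that had entered the choice. For a Salmonella library left out, the rule had already set those 2 means at least 2 steps of 0.7 apart. A library midway between them shows both steps in any case. All genes have no such gap, so their shares are no test of the steps.

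Within a group, the members moved together. After the group means were removed, the correlation of a member with the mean of the other members over the 12 libraries had a median of 0.90 (-0.47 to 0.99), and 82 of the 170 reached 0.9. Among the 7310 other genes the median was -0.13, and 56 (0.766%) reached 0.9. These values are a description, since the 12 points share the libraries and whatever sets the level of each. Salmonella replicate 1 was the highest Salmonella library in 165 members (97.1%, against 23.0% of the other genes), and Salmonella replicate 4 the lowest in 139 (81.8%, against 25.2%). Control replicate 3 was the highest control in 159 (93.5%, against 23.9%), and control replicate 1 the lowest in 126 (74.1%, against 22.8%). The sponge plus Salmonella libraries had a looser order: replicate 2 was the highest in 78 members (45.9%, against 21.3%) and replicate 4 the lowest in 73 (42.9%, against 20.5%).

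The within-group standard deviation of a member had a median of 0.31 log2 units in sponge plus Salmonella, 0.83 in Salmonella and 0.70 in control. Over all genes the medians were 0.24, 0.23 and 0.19. Pooled over the groups, the median was 0.68 for the members and 0.31 for the 4532 other genes with a mean in the same range.

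**Figure D3:**
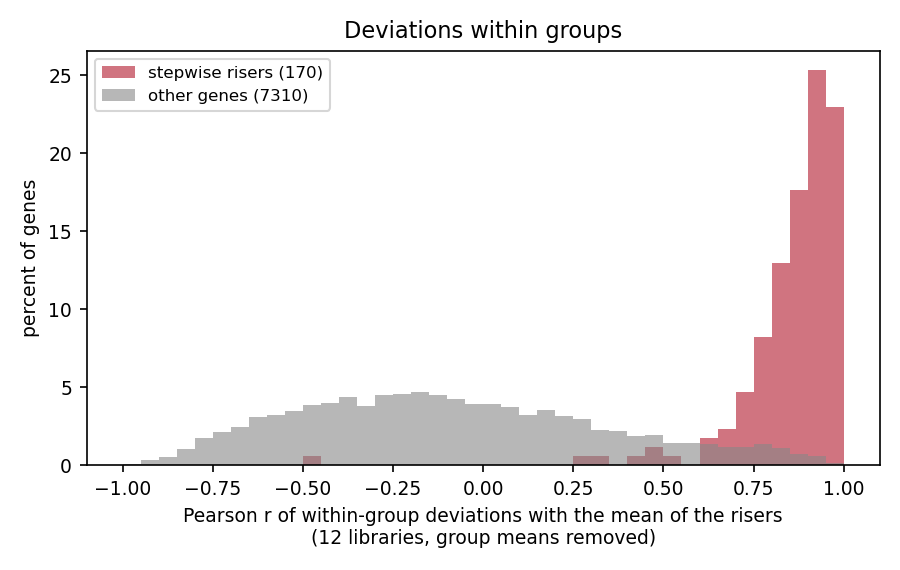
Distribution over genes (percent of genes) of the Pearson correlation, over 12 libraries with group means removed, between a gene and the mean of the stepwise risers (170 risers in red, 7310 other genes in grey). The risers gather above 0.75 with a median of 0.90, and the other genes centre on -0.13.

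The marker genes of blood cell types show what the label PBMC covers. Markers of T cells (14 measured), B cells (6), cytotoxic lymphocytes (7), monocytes (12) and dendritic cells (9) were measured, with list means of at least 6.57 in each library. Red cell genes (7 measured) averaged 8.19 to 9.68 with sponge plus Salmonella, 9.46 to 10.2 with Salmonella and 8.76 to 9.30 in controls. Platelet genes (13 measured) averaged 7.58 to 7.93, 7.53 to 8.08 and 7.21 to 7.44 in the same order, and neutrophil genes (10 measured) 6.27 to 6.81, 6.58 to 7.92 and 6.55 to 7.09. T cell markers averaged 8.33 to 8.93 with sponge plus Salmonella, 7.56 to 8.04 with Salmonella and 8.97 to 9.28 in controls, and monocyte markers 9.08 to 9.62, 10.1 to 10.2 and 8.25 to 8.80. No marker list had members of the module, although the platelet list holds ITGB3 and TUBB1, which were set apart by name and of which ITGB3 met the criteria. The median within-group correlation of its genes with the module ran from -0.41 for dendritic markers to 0.21 for red cell genes. The part of cell composition in the members' values was not tested.

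The table sets further limits. Symbols of families silent in blood (169 olfactory receptor, taste receptor and keratin-associated symbols, of which 6 were in the RefSeq gene table) had a mean of 4.62 and a 95th percentile of 4.99. Of the members, 91 had a control mean at or below that percentile and 11 a Salmonella mean, so the size of their differences is uncertain. Exact ties within a library were frequent with sponge plus Salmonella, touching 65.1% to 71.4% of genes, and rare in the other 8 libraries, at 0.0802% or less. Between 34 and 56 members had such a tied value in each sponge plus Salmonella library and 0 in the others, and the part of these ties in the members' values was not tested. Whether the sponge plus Salmonella libraries were normalized together with the other 8 is not stated in the labels. Each difference that involves them assumes a common scale. Normalization for gene length is not given in the sources used here, so levels are compared between libraries and not between genes. In what follows the 4 values of a group are those of replicates 1 to 4, and coordinates are those of RefSeq genes on Sscrofa11.1.

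RNA processing, ribosome assembly and translation accounted for 29 members. The 7 role groups used here were assigned after the members were known. CLK1 (chr15:104553512-104562348), a kinase of splicing factors, had the largest smaller step of all members. It stood at 8.53, 9.25, 9.48 and 8.52 in the sponge plus Salmonella libraries, at 8.02, 6.34, 6.58 and 5.0 in the Salmonella libraries and at 3.50, 4.25, 5.55 and 4.10 in the control libraries. The sponge plus Salmonella libraries were all above the Salmonella ones, of which replicate 4 overlapped the controls. The difference was 2.46 ± 0.53 (standard error) between sponge plus Salmonella and Salmonella and 2.13 ± 0.53 between Salmonella and control; without Salmonella replicate 1 these became 2.98 and 1.62.

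SLBP (chr8:802940-818161), which binds the stem-loop that ends histone messenger RNAs, stood at 8.58, 8.93, 8.92 and 8.38 in the sponge plus Salmonella libraries, at 8.17, 6.74, 6.84 and 5.70 in the Salmonella libraries and at 3.84, 5.04, 5.95 and 4.18 in the control libraries. It followed the module more closely than any other member, with a correlation of 0.997 over the 12 libraries with the mean of the other members. UTP3, a factor of the small ribosomal subunit's assembly, had 8.52, 8.43, 8.31 and 7.92 with sponge plus Salmonella, 8.13, 6.23, 6.52 and 5.72 with Salmonella and 3.89, 4.61, 5.33 and 4.10 in controls. The Salmonella group was clear of the controls for UTP3, and replicate 1 alone reached the sponge plus Salmonella values.

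DDX17 (chr5:9485792-9505157), an RNA helicase with roles in splicing, had 9.39, 10.09, 9.74 and 9.49 with sponge plus Salmonella, 9.48, 7.60, 7.88 and 7.46 with Salmonella and 4.55, 6.07, 7.06 and 5.29 in controls. NOP56, a core protein of the snoRNPs that guide methylation of ribosomal RNA, had 7.40, 7.60, 7.87 and 7.58 with sponge plus Salmonella, 6.98, 5.68, 5.77 and 5.17 with Salmonella and 3.78, 4.44, 5.18 and 4.11 in controls. For NOP56 the sponge plus Salmonella libraries were clear of the Salmonella ones, and control replicate 3 stood level with Salmonella replicate 4.

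RPL23 (chr12:23279965-23285538), a protein of the large ribosomal subunit, had the largest difference between sponge plus Salmonella and Salmonella of all members, 2.64 ± 0.60. Its values were 12.03, 12.37, 12.43 and 12.35 with sponge plus Salmonella, 11.26, 9.15, 9.91 and 8.30 with Salmonella and 7.25, 9.29, 10.16 and 7.66 in controls. The control and Salmonella groups overlapped widely, and the difference of 1.07 ± 0.60 between them became 0.53 without Salmonella replicate 1. RPL23 has processed copies in mammalian genomes, and how reads shared with copies were assigned is not given in the sources used here, so its values are uncertain.

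The other 22 ribosomal proteins measured are given beside RPL23. In Salmonella against control 1 of the 22 rose and 11 fell by limma (adjusted p below 0.05, where 15.7% of all genes rose and 17.9% fell), among them RPL4 (-1.97 ± 0.14 log2 units, adjusted p = 5.94e-07), RPL22 (-1.60 ± 0.17, 8.81e-06), RPLP0 (-1.15 ± 0.16, 1.11e-04) and RPS23 (-1.48 ± 0.22, 1.40e-04). With the libraries centred on their medians the single rise was no longer called. In sponge plus Salmonella against Salmonella 16 of the 22 rose and 0 fell (11.9% and 13.2% of all genes), led by RPLP0 (1.59 ± 0.16, adjusted p = 4.95e-05), RPL4 (0.97 ± 0.14, 4.06e-04), RPS6 (1.49 ± 0.22, 4.84e-04) and RPL10A (2.11 ± 0.33, 6.10e-04). The median of the 22 was 0.94 in sponge plus Salmonella against Salmonella and -0.61 in Salmonella against control. Within the Salmonella group their mean was 10.57, 10.01, 10.39 and 9.85 in replicates 1 to 4, the same order as for the mean of the members, and control replicate 3 was the highest control. The difference between RPL23 and the other ribosomal proteins was not tested.

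The rest of this role group had smaller steps of 0.73 to 1.30. They cover splicing and RNA binding (CCNL1, HNRNPH2, TIA1, TIAL1, LSM6), RNA decay by the nuclear exosome (RBM7, EXOSC10), 3′ end formation (WDR33), RNA export (NXT2), zinc finger RNA-binding proteins (ZC3H15, ZC3H7A), an activator of the kinase PKR (PRKRA), ribosome assembly (NOC3L, MAK16, SBDS), the mitochondrial ribosome (MRPL15, MRPL48), translation initiation (EIF3A, EIF1AX, DENR), tRNA modification (YRDC, DTWD2) and FAM98A. SBDS, which takes part in the last steps of large subunit assembly, had a difference of 2.18 between sponge plus Salmonella and Salmonella and 0.87 between Salmonella and control, or 0.48 without Salmonella replicate 1. MRPL15 had the opposite balance, 0.73 and 1.59. Over the 29 members the median differences were 1.39 and 1.18, and 1.68 and 0.85 without Salmonella replicate 1, when 17 of the 29 still met both step criteria.

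Chromatin, transcription and DNA accounted for 31 members. LCOR, a corepressor of nuclear receptors, stood at 7.85, 8.49, 8.08 and 8.19 in the sponge plus Salmonella libraries, at 7.73, 5.6, 6.10 and 5.33 in the Salmonella libraries and at 3.59, 4.43, 5.15 and 3.93 in the control libraries. The 3 groups of LCOR did not overlap, with differences of 1.96 ± 0.45 between sponge plus Salmonella and Salmonella and 1.92 ± 0.45 between Salmonella and control. HECA, the homologue of the fly protein headcase, had 8.37, 8.84, 8.83 and 8.35 with sponge plus Salmonella, 7.60, 6.34, 6.54 and 5.24 with Salmonella and 3.99, 5.06, 5.92 and 4.06 in controls.

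RAD21 (chr4:21772821-21802453), a subunit of the cohesin ring that holds sister chromatids together, had 9.43, 9.78, 8.91 and 8.97 with sponge plus Salmonella, 8.75, 6.47, 7.29 and 5.0 with Salmonella and 4.23, 5.43, 6.69 and 4.51 in controls. Its Salmonella libraries ran across almost the whole range between the controls and the sponge plus Salmonella libraries. The difference of 1.66 ± 0.64 between Salmonella and control became 1.04 without Salmonella replicate 1. TSC22D2, of a family of leucine zipper regulators, had 8.31, 8.43, 8.16 and 8.05 with sponge plus Salmonella, 7.55, 6.80, 6.81 and 5.87 with Salmonella and 4.26, 5.73, 6.34 and 4.97 in controls.

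The remaining members of this role group had smaller steps of 0.72 to 1.41. They include deacetylases and an acetyltransferase (HDAC4, SIRT1, CREBBP), subunits of chromatin complexes (MTF2, MSL2, SS18), chromatin-bound proteins (HMGB1, DEK, ANP32A, RIF1), transcription factors and their partners (E2F1, SP4, HCFC2, ID2, MYBL1, EAPP, ATMIN, GPBP1, ZNF398, NKAP, CRY1), factors of transcription by RNA polymerase II (CCNH, EAF1), the O-GlcNAc transferase OGT, the end-joining protein XRCC6, the kinetochore protein SKA2 and the meiotic recombinase DMC1. HDAC4 had a difference of 2.38 between Salmonella and control, kept at 2.06 without Salmonella replicate 1, and 1.34 between sponge plus Salmonella and Salmonella. For EAF1 the difference between Salmonella and control was 2.26 and that between sponge plus Salmonella and Salmonella 0.74, close to the threshold. HMGB1, whose many processed copies make its values uncertain, had differences of 1.79 between sponge plus Salmonella and Salmonella and 1.17 between Salmonella and control. Over the 31 members the medians were 1.41 and 1.17, and 1.69 and 0.85 without Salmonella replicate 1.

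Cytoskeleton, adhesion and signalling accounted for 30 members. GNA13 (chr12:11922630-11966913), a G protein alpha subunit, stood at 8.41, 9.09, 8.69 and 8.26 in the sponge plus Salmonella libraries, at 8.71, 6.15, 6.65 and 5.38 in the Salmonella libraries and at 3.57, 4.59, 5.64 and 3.98 in the control libraries. Salmonella replicate 1 lay within the sponge plus Salmonella range and the other 3 below it. The difference was 1.89 ± 0.57 between sponge plus Salmonella and Salmonella and 2.28 ± 0.57 between Salmonella and control.

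ACTR3 (chr15:20104808-20171721), the actin-related subunit of the Arp2/3 complex that starts actin branches, had 10.36, 10.88, 10.14 and 10.08 with sponge plus Salmonella, 10.22, 8.22, 8.55 and 7.40 with Salmonella and 4.84, 6.56, 7.28 and 5.04 in controls. The Salmonella libraries of ACTR3 were all above the controls, by a mean of 2.67 ± 0.56, and by 2.13 without replicate 1. CAPZA1, which caps the fast-growing ends of actin filaments, had 8.02, 9.32, 7.94 and 8.15 with sponge plus Salmonella, 8.93, 6.20, 6.12 and 6.48 with Salmonella and 4.27, 4.22, 5.95 and 4.29 in controls. In each group 1 library of CAPZA1 stood far above the other 3: replicate 2 with sponge plus Salmonella, replicate 1 with Salmonella and replicate 3 in controls.

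F11R, the junctional adhesion molecule also found on platelets and leukocytes, had 8.49, 9.03, 9.47 and 8.62 with sponge plus Salmonella, 8.85, 6.56, 6.99 and 6.16 with Salmonella and 4.11, 5.26, 5.80 and 4.24 in controls. The immunity-associated GTPases GIMAP1 and GIMAP7, known from lymphocytes, lie 60145 bases apart on chromosome 18. GIMAP1 (chr18:6372854-6387060) had 9.46, 9.04, 9.35 and 9.22 with sponge plus Salmonella, 8.81, 7.77, 7.93 and 6.19 with Salmonella and 4.32, 6.22, 7.01 and 4.63 in controls. GIMAP7 (chr18:6447205-6452975) had 8.49, 9.02, 9.13 and 8.62 with sponge plus Salmonella, 8.77, 5.65, 6.21 and 5.90 with Salmonella and 4.43, 5.15, 6.68 and 4.37 in controls. Salmonella replicate 1 of GIMAP7 was within the sponge plus Salmonella range while the other 3 were at or below control replicate 3, and the difference between Salmonella and control was 0.76 without replicate 1, against 1.47 with it.

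**Figure D4:**
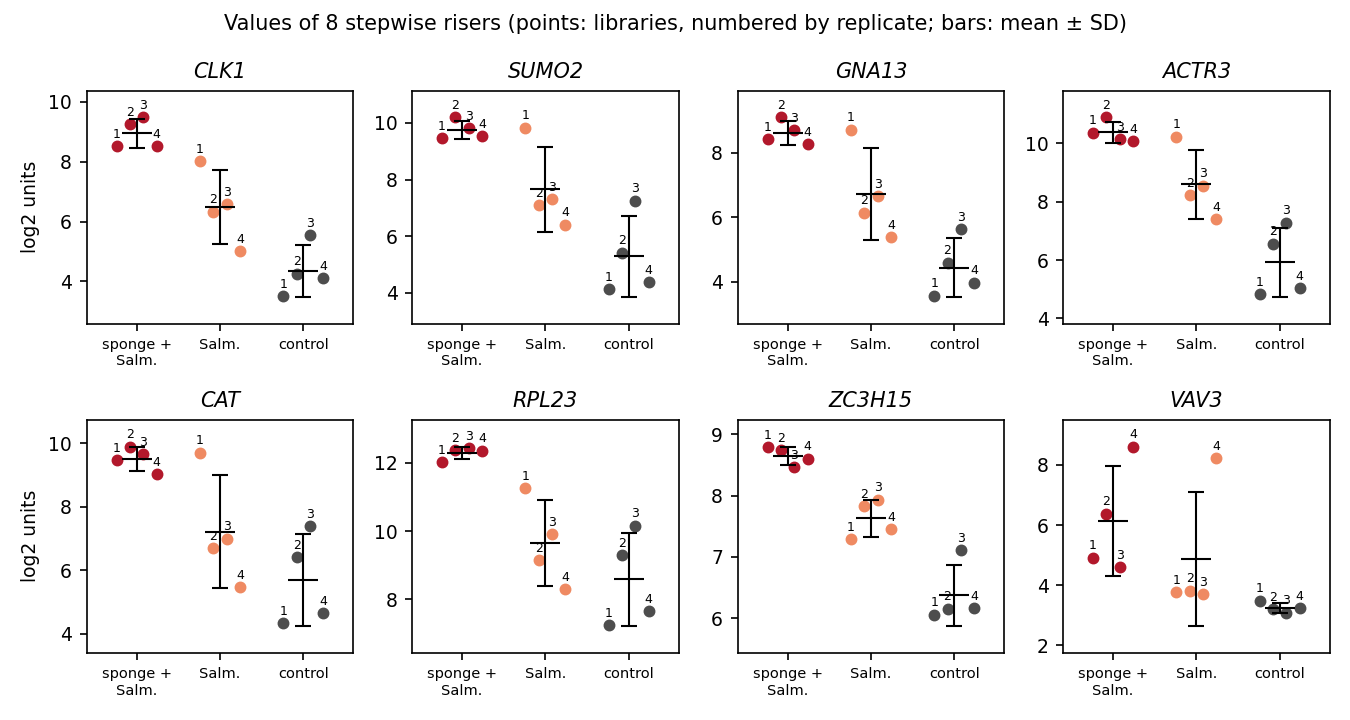
Values of 8 stepwise risers in each library, in log2 units (points: libraries, numbered by replicate; bars: mean ± SD, n = 4 each; the vertical axes differ). In CLK1, SUMO2, GNA13, ACTR3, CAT and RPL23 Salmonella replicate 1 is the highest Salmonella library and control replicate 3 the highest control, while in VAV3 replicate 4 of both treated groups stands above the rest (8.61 and 8.23).

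The 2 largest differences between Salmonella and control among all members belonged to signalling proteins. PIK3AP1, an adaptor that links receptors to phosphoinositide 3-kinase, stood at 9.22, 9.68, 9.30 and 8.60 in the sponge plus Salmonella libraries, at 9.82, 7.68, 8.23 and 7.07 in the Salmonella libraries and at 3.82, 4.30, 5.30 and 4.14 in the control libraries. The control values lay far below every treated library, and the difference between Salmonella and control was 3.81 ± 0.47, or 3.27 without Salmonella replicate 1. GNG10, a G protein gamma subunit, had a difference of 3.10 between Salmonella and control and 1.30 between sponge plus Salmonella and Salmonella. For NEDD9, a docking protein of focal adhesions, these were 2.68 and 1.03. The control means of PIK3AP1 (4.39), GNG10 (3.42) and NEDD9 (4.36) lay below the 4.99 that marks the upper end of the silent families. The size of their differences from control is therefore uncertain.

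VAV3, a guanine nucleotide exchange factor, met the criteria in another way. It had 4.92, 6.38, 4.61 and 8.61 with sponge plus Salmonella, 3.76, 3.82, 3.71 and 8.23 with Salmonella and 3.49, 3.20, 3.08 and 3.24 in controls. Replicate 4 was high in both treated groups, and replicates 1 to 3 with Salmonella were close to the controls, so its place in the module rests on single libraries. Its within-group correlation with the other members, -0.47, was the lowest of all.

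Also in this role group were actin and tubulin proteins (WIPF1, DSTN, TUBA4A), kinases, scaffolds and adaptors (SLK, AKAP7, AKAP11, YWHAG, PDCD10, MBIP, TIPRL, ARPP19), a small effector of Cdc42 (CDC42SE2), the dynactin subunit DCTN4, the cell surface glycoprotein NPTN, leukocyte proteins (BIN2, CYTIP, SAMSN1), the chloride channel protein CLIC4, the receptor IL17RD and the hormone leptin (LEP). TUBA4A, a tubulin that is prominent in platelets, had a difference of 2.20 between sponge plus Salmonella and Salmonella and 1.12 between Salmonella and control. WIPF1, a partner of the Wiskott-Aldrich syndrome protein, had 1.17 and 2.27 for the same differences. Over the 30 members the medians were 1.21 and 1.47, and 1.57 and 1.09 without Salmonella replicate 1, when 22 of the 30 still met both step criteria.

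Of 11 integrins and adhesion proteins measured, 0 were members, since ITGB3, which is one of them and met the 3 criteria, was set apart by name. By limma (adjusted p below 0.05), 2 of the 11 rose and 3 fell in sponge plus Salmonella against Salmonella, where 11.9% of all genes rose and 13.2% fell. Salmonella alone against control gave 3 that rose and 0 that fell, where 15.7% and 17.9% did. ITGB3, which met the criteria on these same contrasts, is counted among the rises in both.

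Membrane traffic, membrane lipids and organelles accounted for 29 members. ATP11B, a flippase that moves phospholipids between the leaflets of a membrane, stood at 7.55, 8.69, 7.97 and 7.68 in the sponge plus Salmonella libraries, at 7.86, 5.59, 6.0 and 4.83 in the Salmonella libraries and at 3.54, 4.26, 5.24 and 3.95 in the control libraries. RTN3, a reticulon that shapes endoplasmic reticulum tubules, had 7.58, 8.20, 8.52 and 8.06 with sponge plus Salmonella, 7.47, 5.76, 6.02 and 4.57 with Salmonella and 3.52, 4.48, 4.58 and 4.0 in controls. RTN3 was clear of overlap between sponge plus Salmonella and Salmonella, by 2.14 ± 0.46, while for ATP11B Salmonella replicate 1 lay inside the sponge plus Salmonella range. The other reticulon, RTN4, had one of the largest differences between Salmonella and control, 2.71.

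RAB8B, a small GTPase of vesicle transport to the plasma membrane, had 10.50, 10.55, 10.42 and 10.39 with sponge plus Salmonella, 10.02, 9.73, 9.77 and 9.31 with Salmonella and 7.81, 8.92, 9.66 and 8.45 in controls. Its groups were close together, with differences of 0.76 ± 0.29 and 1.0 ± 0.29. SEC24A, a cargo-binding subunit of the COPII coat, had 6.42, 6.58, 5.98 and 6.47 with sponge plus Salmonella, 6.5, 4.75, 4.99 and 4.27 with Salmonella and 4.07, 4.19, 4.70 and 3.86 in controls. GABARAPL2, an ATG8 family protein of autophagosomes, had 6.40, 8.40, 7.25 and 7.19 with sponge plus Salmonella, 8.22, 5.03, 6.21 and 5.67 with Salmonella and 4.78, 4.13, 6.05 and 4.63 in controls. The sponge plus Salmonella values of GABARAPL2 were spread widely and Salmonella replicate 1 stood among them.

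The other members named here serve the COPII coat and the endoplasmic reticulum to Golgi route (SEC24D, YIPF5, ERGIC1, ERGIC2, IER3IP1), endosomes and lysosomes (VPS37A, AFTPH, LYST, PIK3C3, MTMR6, TMEM106B, AKTIP), lipid transfer and contact sites (OSBPL11, MOSPD2), the calcium pump ATP2B1, gamma-secretase (APH1A), protein glycosylation (OSTC, ALG5), endocytosis (FCHO2), a Rab regulator (TBC1D9), the Golgi-associated PRRC1 and the efflux transporter ABCC4. LYST, mutated in Chediak-Higashi syndrome with its giant granules, had a difference of 2.30 between Salmonella and control and 0.88 between sponge plus Salmonella and Salmonella. Over the 29 members the median differences were 1.03 between sponge plus Salmonella and Salmonella and 1.51 between Salmonella and control. Without Salmonella replicate 1 they were 1.32 and 1.14, and 24 of the 29 still met both step criteria.

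Another 36 genes of endosomes and vesicle traffic were measured. In sponge plus Salmonella against Salmonella 2 rose and 14 fell (11.9% and 13.2% of all genes), 20 were not called, and STX11 (-2.05 ± 0.29, adjusted p = 4.06e-04), VAMP3 (-1.39 ± 0.20, 4.13e-04), VAMP5 (-3.04 ± 0.49, 7.91e-04) and RAB8A (-0.88 ± 0.17, 0.0021) had the smallest limma p. With Salmonella alone against control 20 rose and 4 fell, led by STX11 (4.11 ± 0.29, adjusted p = 5.94e-07), CHMP5 (3.21 ± 0.27, 1.63e-06), VAMP5 (5.72 ± 0.49, 1.80e-06) and VAMP3 (1.79 ± 0.20, 1.59e-05). RAB8A and RAB8B are close relatives, and RAB8A fell with the sponge where RAB8B stood higher; the difference between them was not tested. Of 13 other lysosome and autophagy genes 1 rose and 9 fell in sponge plus Salmonella against Salmonella, and 4 rose and 2 fell in Salmonella against control (15.7% and 17.9% of all genes).

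Mitochondria and metabolism accounted for 16 members. HSD17B11, a dehydrogenase found on lipid droplets, stood at 8.87, 9.98, 9.73 and 8.78 in the sponge plus Salmonella libraries, at 8.59, 6.77, 7.63 and 6.60 in the Salmonella libraries and at 4.27, 5.2, 6.19 and 4.49 in the control libraries. The 3 groups of HSD17B11 did not overlap, and its differences of 1.95 ± 0.47 and 2.36 ± 0.47 became 2.34 and 1.96 without Salmonella replicate 1. UQCRH, a subunit of respiratory complex III, had 8.04, 9.22, 8.42 and 8.55 with sponge plus Salmonella, 8.38, 6.28, 6.47 and 5.70 with Salmonella and 4.67, 4.83, 6.11 and 4.72 in controls.

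CAT (chr2:26493664-26533881), the catalase that breaks down hydrogen peroxide, had 9.46, 9.89, 9.65 and 9.01 with sponge plus Salmonella, 9.69, 6.68, 6.99 and 5.47 with Salmonella and 4.34, 6.40, 7.38 and 4.65 in controls. Salmonella replicate 1 was level with the sponge plus Salmonella libraries and replicate 4 lay between the controls. The difference between Salmonella and control was 1.52 ± 0.75, and 0.69 without Salmonella replicate 1, which is under the threshold of the rule. CMPK1, a kinase of pyrimidine nucleotides, had 8.71, 9.10, 8.83 and 8.81 with sponge plus Salmonella, 8.99, 6.80, 7.10 and 5.99 with Salmonella and 4.25, 5.94, 7.10 and 4.73 in controls.

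BNIP3L, a receptor for the removal of mitochondria by autophagy that is also used in red cell maturation, had 7.89, 8.47, 7.91 and 7.76 with sponge plus Salmonella, 8.75, 5.44, 5.97 and 4.90 with Salmonella and 3.28, 4.21, 4.90 and 3.62 in controls. HK2, the hexokinase that starts glycolysis, had 7.49, 8.02, 7.44 and 7.0 with sponge plus Salmonella, 7.93, 6.16, 5.91 and 5.98 with Salmonella and 4.34, 5.29, 5.98 and 4.96 in controls. For both, Salmonella replicate 1 stood far above the other 3 Salmonella libraries. The other 9 hypoxia and glycolysis genes measured held 1 that rose and 3 that fell in sponge plus Salmonella against Salmonella (11.9% and 13.2% of all genes). In Salmonella against control 2 rose and 2 fell (15.7% and 17.9% of all genes). Among them were SLC2A1 (0.98 ± 0.17, adjusted p = 0.0011, with the sponge and -0.97 ± 0.17, 4.88e-04, with Salmonella) and PFKFB3 (-1.37 ± 0.23, 0.0011, and 1.75 ± 0.23, 6.06e-05).

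The rest were respiratory subunits (UQCRC2, NDUFB9), the carnitine carrier SLC25A20, the phosphatase PPM1K, the iron-sulfur protein ISCA1, the retinol dehydrogenase RDH11, the polyamine genes AMD1 and AZIN1, the sialic acid enzyme GNE and the histidine-degrading enzyme HAL. AZIN1, which shields ornithine decarboxylase from its antizyme, had a difference of 1.97 between sponge plus Salmonella and Salmonella and 1.0 between Salmonella and control, or 0.65 without Salmonella replicate 1. Over the 16 members the medians were 1.44 and 1.27, and 1.83 and 0.88 without Salmonella replicate 1.

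Protein folding, ubiquitin and SUMO accounted for 21 members. SUMO2 (chr12:6116694-6130089), a small protein that is attached to others as a modifier, stood at 9.47, 10.20, 9.80 and 9.54 in the sponge plus Salmonella libraries, at 9.84, 7.09, 7.31 and 6.40 in the Salmonella libraries and at 4.11, 5.41, 7.25 and 4.36 in the control libraries. Salmonella replicate 1 lay inside the sponge plus Salmonella range, and control replicate 3 lay inside the Salmonella range. The differences were 2.09 ± 0.68 between sponge plus Salmonella and Salmonella and 2.37 ± 0.68 between Salmonella and control. SPOPL, a substrate adaptor of the CUL3 ubiquitin ligase, had 7.81, 8.20, 7.72 and 7.40 with sponge plus Salmonella, 7.35, 5.86, 6.40 and 5.76 with Salmonella and 4.06, 4.8, 5.56 and 4.45 in controls, with no overlap between the 3 groups.

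HSPA4, a nucleotide exchange factor for the chaperone HSP70, had 7.15, 6.81, 6.59 and 6.68 with sponge plus Salmonella, 6.67, 4.69, 5.11 and 4.21 with Salmonella and 3.73, 3.74, 4.30 and 3.68 in controls. HSPE1, the mitochondrial co-chaperone HSP10, had 8.05, 8.19, 7.87 and 7.90 with sponge plus Salmonella, 8.85, 6.73, 6.78 and 5.36 with Salmonella and 3.88, 5.0, 6.27 and 3.98 in controls. The standard error of the HSPE1 difference between sponge plus Salmonella and Salmonella was large beside it (1.07 ± 0.60), and Salmonella replicate 1 exceeded every sponge plus Salmonella library; without that replicate the difference was 1.71. Of 18 other chaperone and unfolded protein response genes 0 rose and 5 fell in sponge plus Salmonella against Salmonella (limma, adjusted p below 0.05, where 11.9% of all genes rose and 13.2% fell), among them DNAJA1 (-1.07 ± 0.21, adjusted p = 0.0026) and HSPH1 (-1.02 ± 0.26, 0.012). Of the same 18, 5 rose and 3 fell in Salmonella against control (15.7% and 17.9% of all genes), among them HSP90AA1 (1.28 ± 0.18, adjusted p = 8.05e-05) and ERN1 (-1.86 ± 0.22, 1.89e-05).

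The other members were subunits of the chaperonin TRiC (CCT6A, TCP1), prolyl isomerases (FKBP3, FKBP14), thioredoxin-like proteins (TXNL1, TXNDC9), the collagen prolyl hydroxylase subunit P4HA1, NUDCD2, ubiquitin enzymes (UBE2H, UBA6, UBE4A), the proteasome phosphatase UBLCP1, deubiquitinases (OTUD6B, USP49) and ubiquitin ligase adaptors (FBXO30, FBXO38, KLHL2). FBXO38 had a difference of 2.22 between sponge plus Salmonella and Salmonella, and 1.35 between Salmonella and control, or 0.83 without Salmonella replicate 1. TCP1 had 1.0 and 2.07 for these. Over the 21 members the medians were 1.30 and 1.57, and 1.71 and 1.12 without Salmonella replicate 1, when 17 of the 21 still met both step criteria.

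The last 14 members have other or less clear roles. Among them were CATSPER2, CASP6, TMEM154, CPPED1, FGFR1OP2, ANKRD10, FNDC3A, TMEM128, LRRC58, KRCC1, ANKRA2, ABHD15 and CDKN2AIPNL. Their median differences, 1.03 between sponge plus Salmonella and Salmonella and 0.80 between Salmonella and control, became 1.46 and 0.65 without Salmonella replicate 1, when 6 of the 14 still met both step criteria. CASP6, an executioner caspase, had 1.06 and 1.01.

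**Figure D5:**
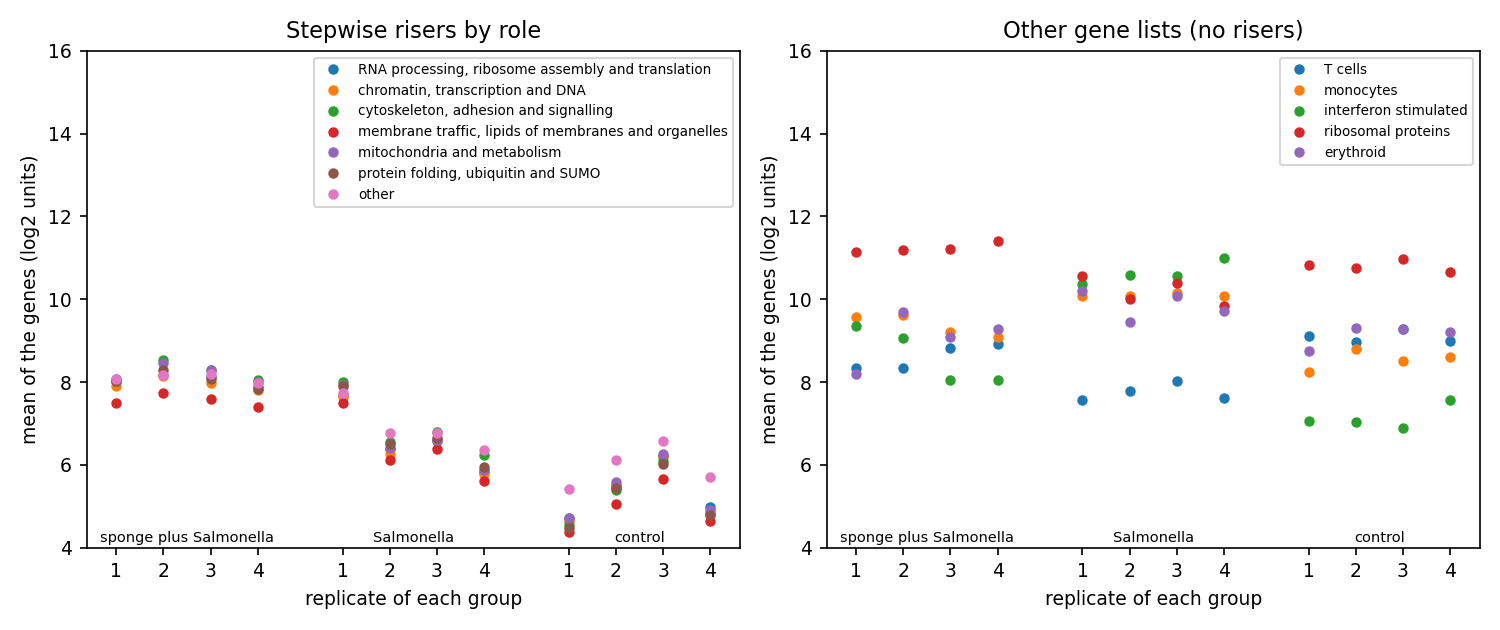
Mean value of the stepwise risers of each role (left) and of the genes of 5 lists without risers (right) in each library, in log2 units, by group and replicate. The 7 roles follow the same course over the 12 libraries, with Salmonella replicate 1 high in each, while the 5 lists differ in theirs: T cell genes are lowest and interferon-stimulated and monocyte genes highest with Salmonella, and ribosomal protein and red cell genes also have their highest Salmonella value in replicate 1 (10.6 and 10.2).

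Interferon-stimulated genes held no members. Of 20 measured, 0 rose and 17 fell in sponge plus Salmonella against Salmonella, and 19 rose and 0 fell in Salmonella against control (limma, adjusted p below 0.05). CMPK2 (-2.88 ± 0.33, adjusted p = 1.17e-04), IFI6 (-3.38 ± 0.40, 1.33e-04), ZBP1 (-1.62 ± 0.20, 1.89e-04) and OASL (-2.90 ± 0.38, 2.80e-04) had the smallest p in the comparison with the sponge. Their list mean was 8.05 to 9.36 in the sponge plus Salmonella libraries and 10.4 in Salmonella replicate 1. The other Salmonella libraries stood at 10.57 to 10.999. Salmonella replicate 1, the highest of its group for the members, was thus the lowest of its group for these genes. It still stood above every sponge plus Salmonella library. Monocyte markers gave 0 that rose and 7 that fell of 12 with the sponge, and T cell markers 11 that rose and 0 that fell of 14; in Salmonella against control monocyte markers gave 8 that rose and 0 that fell and T cell markers 0 and 13.

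The remaining lists are given beside the shares of all genes, of which 11.9% rose and 13.2% fell in sponge plus Salmonella against Salmonella and 15.7% and 17.9% in Salmonella against control. Several counts, such as those of platelet and neutrophil genes with the sponge, were near these shares. The 2 platelet genes that rose with the sponge were ITGB3 and TUBB1, the symbols set apart by name, and ITGB3 had met the criteria on these same contrasts. In sponge plus Salmonella against Salmonella, B cell markers gave 5 that rose and 1 that fell of 6, cytotoxic lymphocyte markers 2 and 0 of 7, red cell genes 0 and 3 of 7, platelet genes 2 and 2 of 13, neutrophil genes 0 and 1 of 10, dendritic cell markers 3 and 0 of 9, inflammatory cytokines 3 and 5 of 16 and immediate early genes 3 and 1 of 16. In Salmonella against control the counts of rises and falls were 1 and 5 for B cell markers, 0 and 5 for cytotoxic lymphocyte markers, 2 and 0 for red cell genes, 6 and 0 for platelet genes, 2 and 2 for neutrophil genes, 0 and 5 for dendritic cell markers, 7 and 1 for inflammatory cytokines and 5 and 4 for immediate early genes.

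Genes reported as miR-124 targets were looked at because the sponge is directed at that microRNA. Of 48 listed, 24 were measured and 0 were members. The list holds IQGAP1, which was set apart by name and did not meet the criteria. It also holds ROCK2, named below among the non-members most like the module. In sponge plus Salmonella against Salmonella 6 of the 24 rose and 3 fell (limma, adjusted p below 0.05, where 11.9% and 13.2% of all genes did), with LAMC1 (1.68 ± 0.24, adjusted p = 4.06e-04), VAMP3 (-1.39 ± 0.20, 4.13e-04), STAT3 (-1.24 ± 0.25, 0.0030) and NR3C2 (0.94 ± 0.22, 0.0074) having the smallest p. Their median difference was 0.01, against -0.04 over all genes. Against control, Salmonella alone gave 9 that rose and 3 that fell, where 15.7% and 17.9% of all genes did, with a median of 0.25.

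Some members did not follow the module's course within groups. Beside VAV3, the lowest within-group correlations were those of ZC3H15 (0.30), CREBBP (0.31), HAL (0.42) and ERGIC1 (0.45). ZC3H15 stood at 8.79, 8.74, 8.46 and 8.60 in the sponge plus Salmonella libraries, at 7.29, 7.83, 7.93 and 7.46 in the Salmonella libraries and at 6.06, 6.16, 7.11 and 6.16 in the control libraries. Its 3 groups did not overlap, and Salmonella replicate 1 was its lowest Salmonella library, so its differences of 1.02 ± 0.24 and 1.25 ± 0.24 were 0.91 and 1.37 without that library. Salmonella replicate 1 was not the highest of its group either in CYTIP, ABCC4 and ABHD15, where replicate 3 was.

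In 18 members Salmonella replicate 3, not replicate 4, was the lowest Salmonella library. CATSPER2, DMC1 and LEP, which are among them, were singled out after their values were seen. CATSPER2 is a sperm ion channel subunit, DMC1 a recombinase of meiosis and LEP a hormone of fat tissue, and their means in the sponge plus Salmonella libraries were 11.15, 12.12 and 8.20 log2 units, well above the 4.99 that marks the upper end of the silent families. DMC1 is a neighbour of the member DDX17 on chromosome 5, with a gap of 15459 bases. Why genes of germ cells and fat tissue have such values in PBMC libraries was not tested.

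Of the 170 members, 164 were found in the RefSeq gene table, as were 6906 of all 7480 genes; HSD17B11, LCOR, UQCRC2, UQCRH and ZNF398 were among those not matched. The members' genes spanned a median of 37.4 kb, against 26.5 kb over all genes. Chromosome 8 held 7.32% of the members against 3.58% of all genes, and chromosome 6 held 5.49% against 10.3%, without a test. Beside GIMAP1 with GIMAP7 and DDX17 with DMC1, 1 other pair of members lay within 200 kb, CDKN2AIPNL and SEC24A on chromosome 2 with a gap of 147498 bases.

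The module has no sharp edge. Just inside the threshold of 0.7 were FCHO2, VPS37A and ANKRD10, whose smaller steps were 0.70, 0.70 and 0.71. Just outside were FH, CTSO and TMEM184C, with 0.697, 0.694 and 0.693. The non-members most like the mean of the members over the 12 libraries were DYNLRB1 (Pearson r 0.974), HMGB2 (0.974), ROCK2 (0.973), PCYOX1L (0.971) and PHF5A (0.971). DYNLRB1, a light chain of the motor dynein, stood at 8.91, 9.30, 9.26 and 8.97 in the sponge plus Salmonella libraries, at 9.34, 8.30, 8.63 and 7.78 in the Salmonella libraries and at 6.76, 7.61, 8.02 and 6.77 in the control libraries. It thus had the same order of libraries within the Salmonella and control groups, and missed the rule with a difference of 0.597 between sponge plus Salmonella and Salmonella. The members nearest to the mean of the others were SLBP (0.997), GNA13 (0.996), LCOR (0.994), TXNDC9 (0.993) and SPOPL (0.993).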

How the data were processed

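Messenger RNA was sequenced from 12 libraries labelled PBMC, 4 each of sponge plus Salmonella, Salmonella and control, grouped by the treatment given in the labels. A PAXgene kit and Illumina TruSeq libraries were used, per the labels' protocols, with 50-base single reads. The submitters' processing notes name Bowtie, R 3.4.2 and Sscrofa11.1. How genes were counted, filtered, normalized and corrected for length, and whether strand was used, is not stated in the labels. The authors deposited 1 table of 7480 gene symbols on a log scale, from 2.13 to 15.0, whose base is not stated and was read as log2. The depth behind each value is unknown, so no counting error is given.

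Group means and differences were computed from the deposited log2 values. A single limma fit (version 3.58.1, R 4.3.3) took in all 12 libraries, with a trend of the variance on the mean level, and p-values were adjusted by the Benjamini-Hochberg method over all 7480 genes, with genes called below 0.05. The design had allowed for a count model and a pseudocount, which log values do not call for. For the members the fit gave standard errors, and counts of calls from which nothing is read. No label names the animals, so p-values of other genes reflect library spread that may be technical. The fit was tested on simulated data.

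The members and the 19 gene lists were chosen with earlier results of these data known, and the 7 role groups were assigned to the members afterwards. Apart from 2 members and 1 list that are not reported here, each member is named, and values in every library are given for the 24 members with the largest smaller step and for each member in a list; of each list described, up to 4 other genes with the smallest p are named. PIK3AP1, VAV3, ZC3H15 and DYNLRB1 were given library values after these were seen. Levels of 169 symbols of families silent in blood were taken as background. Gene positions come from the RefSeq gene table of Sscrofa11.1. A description of promoter motifs and proteins was planned and is not made here, because no sequence table was used. Alternatives were other thresholds, medians, median centring, a fit without the trend, a level filter, a replicate block and leaving out each library.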

Additional observations from a re-analysis of the deposited data

Results flagged for a closer look

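Far libraries were looked for in the 3 groups of 4 libraries of 32 items, 31 members with full values and the mean of all members, by Dixon's test on the gap to the nearest library as a share of the range at the 95% level. Of these 96 groups 6 held a library past that value, and chance alone flags about 1 in 20 groups. Members share their libraries and are not independent of each other.

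CAPZA1, the actin capping protein, had 3 of the 6. Its value was 9.32 in sponge plus Salmonella replicate 2, where the other 3 libraries had 7.94 to 8.15. It was 8.93 in Salmonella replicate 1, with 6.12 to 6.48 in the others, and 5.95 in control replicate 3, with 4.22 to 4.29 in the others.

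HK2, the first enzyme of glycolysis, had 7.93 in Salmonella replicate 1 and 5.91 to 6.16 in the other Salmonella libraries. UQCRH, of respiratory complex III, had 6.11 in control replicate 3 and 4.67 to 4.83 in the other controls. HSPA4, the HSP70 exchange factor, had 4.30 in control replicate 3 and 3.68 to 3.74 in the other controls, all below the 4.99 that marks the upper end of the silent families. Of the 6 values, 5 came from Salmonella replicate 1 or control replicate 3.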

How the results depend on the processing

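The rule gave 170 genes. With both steps of at least 1 it gave 91, and with 0.5, other level floors, medians, median centring or 1 library left out the number stayed within 1.5 times of 170. Leaving out 1 library gave 138 to 192 risers. With medians 147 of the 170 remained among 180 genes, with median centring 142 among 142, and without Salmonella replicate 1 114 among 148. Leaving out Salmonella replicate 1 together with control replicate 3, an alternative chosen after seeing the data, gave 193 genes, of which 150 were among the 170. The genes called over the table numbered 1873 in sponge plus Salmonella against Salmonella (1325 to 2013 with 1 library left out), 2513 in Salmonella against control (1991 to 2419) and 3057 in sponge plus Salmonella against control (2441 to 2959). Members past the threshold in sponge plus Salmonella against Salmonella were 112 with all libraries, where 888 of all genes were called higher. They were 54 without Salmonella replicate 4 (606 of all genes) and 66 without Salmonella replicate 2 (669 of all genes). Without sponge plus Salmonella replicates 2 and 3 they were 72 and 74 (797 and 733 of all genes). In Salmonella against control they were 114 (1175 of all genes), and 75 without control replicate 1 (917 of all genes). Nothing is read from these counts. All 558 recomputed steps of the members with full values kept their direction and stayed within 1 SD. That mark is weak, since leaving out 1 of 4 libraries can hardly move a mean so far. Between Salmonella and control, the step of CAT fell from 1.52 to as low as 0.69 with 1 library left out. That of RPL23 fell from 1.07 to 0.53 and that of SEC24A from 0.93 to 0.47. Of 228 recomputed list counts 12 moved by over 1.5 times. Of these, 8 were in sponge plus Salmonella against control, whose list counts are not given here. The other 4 came with median centring: 1 integrin and 1 cytokine gene that rose with the sponge in place of 2 and 3, and, in Salmonella against control, 1 platelet gene that fell and 0 ribosomal proteins that rose in place of 0 and 1. With the replicate number as a block, 1706, 2371 and 2907 genes were called, with 105, 115 and 170 members. Deviations of same-numbered libraries correlated at -0.36 to 0.38 between Salmonella and control, and 2 of 12 library matches between groups were best with their own number, so the numbers give no sign of a pairing. The unknown depth limits all values, and the size of differences that involve levels at or below 4.99 is uncertain.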

Other observations

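Among the genes outside the module, 56 of 7310 had a within-group correlation of at least 0.9 with the mean of the members, and 28 had one of -0.9 or lower. The 5 most opposed were STK4 (-0.97), RBM4 (-0.97), SFT2D1 (-0.95), ZMAT5 and CTCF. STK4 is a kinase of the Hippo pathway, and its group means were 12.0 log2 units with sponge plus Salmonella, 11.9 with Salmonella and 12.7 in controls. RBM4, an RNA-binding protein of splicing, had means of 6.56, 7.11 and 7.17 in the same order. Within their groups these genes were thus low where the members were high, as a description over 12 libraries that share whatever sets each library's level.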
